A study of Drosophila melanogaster with 4 samples.

Results

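The GABAergic neurons of late embryos were examined in single-cell RNA-seq of whole Drosophila melanogaster embryos of the wild-type strain OregonR. A barcode of the stage 13-16 libraries was taken as a GABA neuron when it held at least 1500 UMIs (unique molecular identifiers, each standing for 1 captured transcript), at most 25% of them from mitochondrial genes, at least 1 UMI of elav, at least 2 UMIs of Gad1 and no UMI of VGlut, VAChT or ChAT. By this rule 15 barcodes of replicate 1 and 71 barcodes of replicate 2 were GABA neurons, 86 in all, out of 35988 elav-positive barcodes and 65697 barcodes that passed the depth and mitochondrial limits. The series held 109582 barcodes in 4 libraries, 2 of stages 13-16 and 2 of stages 10-12, and each library was made from pooled, dechorionated whole embryos with no transgene, sort or treatment named in the labels. The 2 replicates of a stage range are separate libraries. The paper's pseudotime analysis places the embryos of replicate 1 of stages 13-16 later in development than those of replicate 2. The fits take out the difference in level between libraries. The p-values set a class difference against a spread that leans on an estimate across genes. They do not measure how well the 2 libraries agree. The gene Vmat, for example, was called higher than in other elav-positive barcodes (log2 3.99, SE 0.33). Its values were -0.073 in replicate 1 alone and 4.68 in replicate 2 alone.

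GABA is the main fast inhibitory transmitter of the insect central nervous system. It is made from glutamate by glutamic acid decarboxylase, the product of Gad1, and loaded into synaptic vesicles by the transporter VGAT. In flies acetylcholine is the main excitatory transmitter, glutamate is used by motor neurons and some interneurons, and a neuron's transmitter is tied to the neuroblast lineage and transcription factors it comes from.

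The members were chosen by their UMIs of Gad1, elav, VGlut, VAChT and ChAT, so the levels of these 5 genes are a description only. The 42 Gad1 UMIs of replicate 1 and the 294 of replicate 2 came to 2 to 4 UMIs a member (median 3) in replicate 1 and 2 to 20 (median 3) in replicate 2. Gad1 stood at 175 and 201 CPM (UMIs of the gene per 1000000 UMIs of the summed barcodes) in GABA neurons, against 0.837 and 2.24 in the other elav-positive barcodes. elav, an RNA-binding protein of neurons, stood at 1058 and 1341 CPM, against 462 and 478. Of the elav-positive barcodes with at least 2 Gad1 UMIs, 15 of 18 in replicate 1 and 71 of 136 in replicate 2 were members. In replicate 2, 12 of the others held VGlut alone, 22 VAChT or ChAT alone and 31 both kinds, and in replicate 1 all 3 held VAChT or ChAT. Those excluded barcodes were deep, with medians of 61865 and 64869 UMIs.

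The members made up 0.125% of elav-positive barcodes in replicate 1 (95% Clopper-Pearson interval 0.0697 to 0.205%) and 0.297% in replicate 2 (0.232 to 0.374%). A rule that asks for 2 UMIs is met more often in deep barcodes. With every barcode thinned to 1500 UMIs, 0 of 6561 elav-positive barcodes met the rule in replicate 1 (upper bound 0.0562%) and 7 of 12137 in replicate 2 (0.0577%, 0.0232 to 0.119%). Intervals cover counting error only. The members were also deeper than the barcodes they are set against, with medians of 12637 and 15104 UMIs, against 4417.5 and 7784 in other elav-positive barcodes. No doublet caller was run, and multiplets were addressed only by leaving out deep barcodes and those rich in non-neuronal markers. The 2 libraries shared 389 barcode sequences, none of them a member.

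VGAT, which the rule did not use, was found more often the more Gad1 UMIs a barcode held. It was detected in 7 of 9 barcodes with 3 or more Gad1 UMIs in replicate 1 (77.8%) and in 30 of 44 in replicate 2 (68.2%). Just inside the threshold, at 2 Gad1 UMIs, 1 of 6 barcodes (16.7%) and 8 of 27 (29.6%) held VGAT. Just outside it, at 1 Gad1 UMI, the shares were 1 of 69 (1.45%) and 19 of 251 (7.57%), and at 0 they were 0.796% and 1.26%. Median depth moved with the Gad1 count as well, at 4212 UMIs for 0 and 12637 for 3 or more in replicate 1, and 7309.5 and 14889.5 in replicate 2. The VGAT level, which is scaled to depth, moved in the same direction. It was 208 and 87.4 CPM at 3 or more Gad1 UMIs, against 1.05 and 1.13 at 0.

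**Figure D1:**
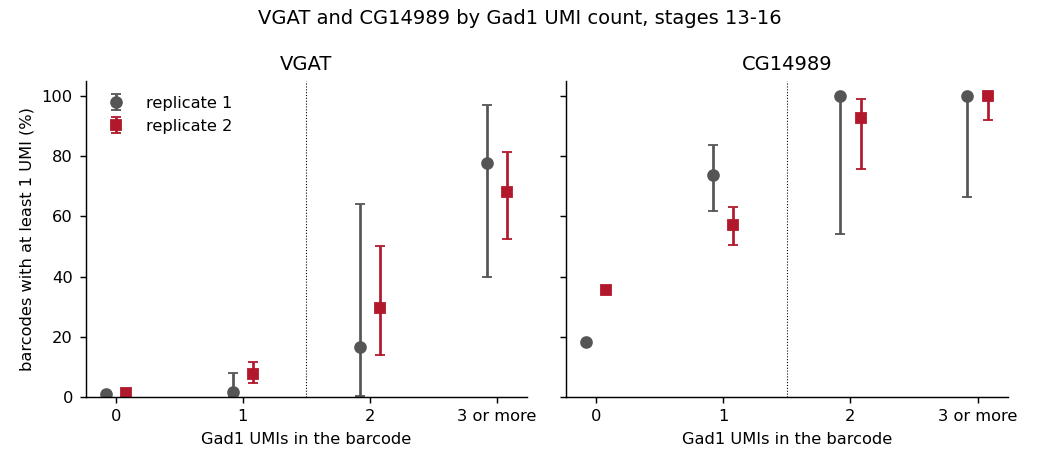
Percentage of elav-positive barcodes without VGlut, VAChT or ChAT that held at least 1 UMI of VGAT (left) or CG14989 (right), by Gad1 UMIs in the barcode, for both stage 13-16 libraries. Points are shares and bars 95% Clopper-Pearson intervals, the dotted line is the threshold of the rule, and VGAT reached 77.8% and 68.2% at 3 or more Gad1 UMIs.

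CG14989, the neighbour of Gad1 on the chromosome and a gene with no named function, was among the most abundant transcripts of the members. It stood at 6995 and 6339 CPM in GABA neurons, against 97.5 and 158 in other elav-positive barcodes. It ranked number 6 and 5 among all genes of the GABA sums by UMIs, whereas Gad1 ranked 807 and 804. All 15 members of replicate 1 and 69 of 71 members of replicate 2 held it, with a median of 123 and 95 UMIs a barcode. In the other elav-positive barcodes 19.6% and 37.0% held at least 1 UMI. Among barcodes with at least 2% of their UMIs in muscle genes, 9.85% and 33.6% did (medians of 8700.5 and 9270 UMIs, against 4417.5 and 7784). In replicate 2 the shares of these groups were close. The muscle gate did not leave out elav-positive barcodes or multiplets. The groups may therefore overlap, and the muscle share is not a clean non-neuronal background. The difference passed edgeR's quasi-likelihood test against all 3 references, with log2 differences of 5.72 ± 0.10 (SE) against other elav-positive barcodes, 4.25 ± 0.31 against glutamatergic neurons and 6.25 ± 0.34 against cholinergic neurons (adjusted p of 2.6e-05 and 3.6e-07 for the last pair). The difference from glutamatergic neurons was about as large with no replicate block (4.20, adjusted p = 0.059) and without barcodes rich in non-neuronal markers (4.09, adjusted p = 0.095), but was not called there.

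In the Ensembl annotation of the BDGP6.54 assembly, CG14989 (FBgn0035495) lies on chromosome 3L at 4087581 to 4092706 on the plus strand, and Gad1 (FBgn0004516) at 4074077 to 4088744 on the minus strand. Their spans overlap by 1164 bases at the 5′ ends, and the 3′ UTRs of CG14989 begin 1917 bases beyond the end of Gad1. The library chemistry reads the 3′ ends of transcripts. The strand setting of the authors' counting is not given in the sources used here, so reads in the overlap could belong to either gene. The annotation is newer than the one the authors counted with.

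Glutamatergic neurons were gated by at least 2 UMIs of VGlut, and cholinergic neurons by at least 2 UMIs of VAChT and ChAT together, each with 0 UMIs of the other transmitter genes. They numbered 25 and 67 barcodes, and 244 and 687 barcodes, with median depths of 10116 and 11338 UMIs and of 12485.5 and 14958 UMIs. Both were nearer to the GABA neurons in median depth than the other elav-positive barcodes were. Both comparisons use the same GABA sums, so their values are given side by side.

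VGAT stood at 91.7 and 73.1 CPM in GABA neurons, against 10.9 and 10.7 in glutamatergic, 7.37 and 5.71 in cholinergic and 1.50 and 2.68 in other elav-positive barcodes. Each class is 1 sum in a library, and the GABA sum was the highest in both libraries. The log2 differences were 2.93 ± 0.40, 3.74 ± 0.34 and 5.24 ± 0.45 in the same order. The VGAT difference from glutamatergic neurons was about as large with no replicate block (3.00, adjusted p = 0.17) and without barcodes rich in non-neuronal markers (2.92, adjusted p = 0.14), but was not called there. It was 2.15 at 3000 to 10000 UMIs (adjusted p = 0.70), and the difference from cholinergic neurons was then 2.66 (adjusted p = 0.28). VGAT was seen in 8 of 15 and 38 of 71 members, with at most 6 and 11 UMIs in a barcode.

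The remaining genes of GABA handling did not pass a test in any comparison. Gat, the plasma membrane GABA transporter known from glia, had 0 and 7 UMIs in the members. Gabat, the GABA transaminase, stood at 12.5 and 24.6 CPM, against 13.9 and 27.0 in other elav-positive barcodes, and Ssadh, which acts after it in GABA breakdown, at 16.7 and 32.1, against 25.3 and 45.9. Of 9 genes measured in this list, 7 could be tested against other elav-positive barcodes and VGAT alone was called. Over all genes 10.8% were called higher and 10.8% lower there, so 1 call among 7 is near that share.

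**Figure D2:**
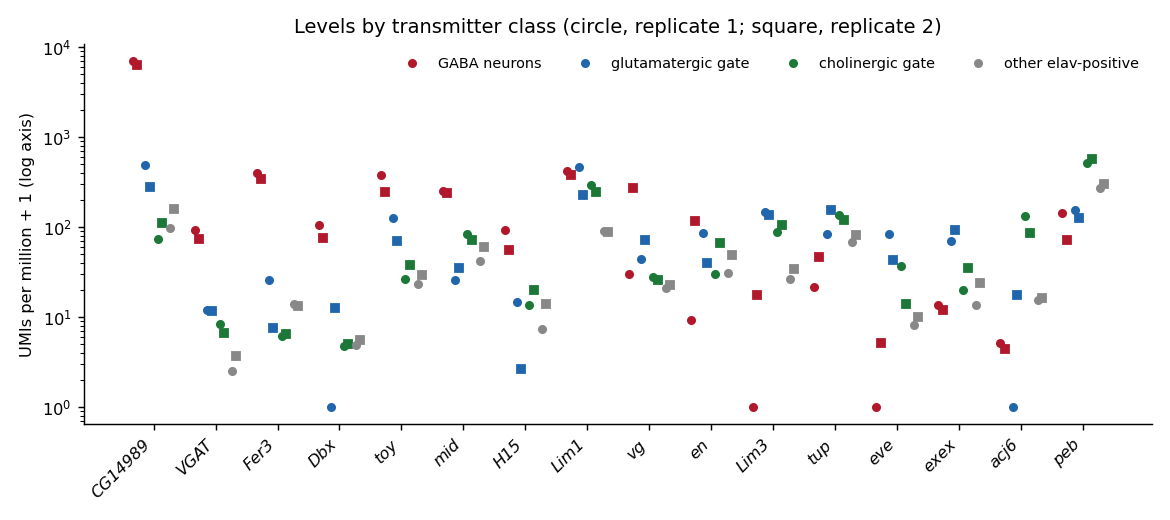
CPM plus 1 on a log axis for 16 genes in the summed GABA neurons, glutamatergic gate, cholinergic gate and other elav-positive barcodes, left to right for each gene. Circles are replicate 1 and squares replicate 2, and CG14989, VGAT, Fer3, Dbx, toy, mid and H15 are highest in both GABA sums.

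Of 7232 genes tested against glutamatergic neurons, 24 were higher (0.332%) and 28 lower (0.387%) in GABA neurons at an adjusted p of at most 0.05, or 0.719% in all. Against cholinergic neurons 136 were higher (1.88%) and 204 lower (2.82%), 4.70% in all. Against other elav-positive barcodes, a mixed and shallower group, 1171 of 10835 were higher (10.8%) and 1168 lower (10.8%), 21.6% in all, and with both groups held to 3000 to 10000 UMIs 297 were called. Without the library as a block the counts fell to 0, 4 and 797, with 209 genes at an unadjusted p under 0.05 for the glutamatergic pair. Without barcodes that had over 1% of their UMIs in non-neuronal markers the 52 genes called against glutamatergic neurons became 3, and the 340 against cholinergic neurons became 44.

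Transcription factors of neuronal lineages were among the genes with the largest differences. Fer3, a basic helix-loop-helix factor, stood at 396 and 338 CPM in GABA neurons, against 24.6 and 6.57 in glutamatergic, 5.14 and 5.55 in cholinergic and 13.0 and 12.3 in other elav-positive barcodes. Both GABA sums lay above every other sum. Its log2 differences were 5.02 ± 0.38, 6.11 ± 0.32 and 4.83 ± 0.20 in the same order. It was held by 4 of 15 and 30 of 71 members, and 1 barcode gave 49.5% of its UMIs in replicate 1. With the non-neuronal-rich barcodes left out it still passed against both transmitter classes.

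Dbx, a homeobox gene known from GABAergic interneurons of the fly ventral nerve cord, stood at 104 and 75.2 CPM, against 0 and 11.5 in glutamatergic and 3.80 and 4.01 in cholinergic neurons (log2 3.44 ± 0.56 and 4.52 ± 0.47). It was held by 26.7% and 36.6% of members, against 2.26% and 3.02% of other elav-positive barcodes. toy, a Pax6 gene, stood at 375 and 245, against 126 and 69.8 in glutamatergic and 25.2 and 36.8 in cholinergic neurons (log2 1.78 ± 0.32 and 3.30 ± 0.31). In each library the GABA sum was the highest for both genes.

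The neighbouring T-box genes mid and H15, 45045 bases apart in the annotation, were both higher. mid stood at 254 and 241 CPM, against 24.6 and 34.5 in glutamatergic and 82.6 and 71.4 in cholinergic neurons (log2 3.04 ± 0.27 and 1.78 ± 0.22). H15 stood at 91.7 and 54.0, against 13.7 and 1.64 and against 12.7 and 19.0 (log2 3.85 ± 0.68 and 2.12 ± 0.45). The 2 genes were found together in 3 and 12 members, where their separate shares give 1.6 and 5.92. br, a zinc finger factor of the ecdysone response, stood at 233 and 489, against 169 and 177 in cholinergic neurons, with log2 differences of 1.59 ± 0.32 against glutamatergic and 1.18 ± 0.29 against cholinergic neurons. Against glutamatergic neurons, Fer3 and mid kept their calls without barcodes rich in non-neuronal markers, Fer3 and Dbx kept theirs without the deepest barcodes, and H15, toy and br kept theirs under neither. Without the deepest barcodes the log2 difference of mid was 1.83 against glutamatergic neurons (adjusted p = 0.18) and 0.64 against cholinergic neurons (adjusted p = 0.56). That of br was then 0.84 (adjusted p = 0.62) and 0.23 (adjusted p = 0.84), and br was not called against cholinergic neurons by DESeq2 (adjusted p = 0.084). H15 also lost its call against cholinergic neurons without the deepest barcodes (log2 2.13, adjusted p = 0.19).

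Of 127 lineage transcription factors listed, 109 were tested against the transmitter classes. Against glutamatergic neurons 6 were higher (Fer3, H15, Dbx, mid, toy and br) and 7 lower (background 0.332% and 0.387%). The median log2 difference was 0.049 beside -0.0030 over all genes. Against cholinergic neurons 17 were higher and 13 lower (background 1.88% and 2.82%), with a median of -0.047 beside -0.023. Those higher there included CG4328 (4.16 ± 0.44), Lmx1a (3.09 ± 0.35), vg (2.55 ± 0.48), dac (2.32 ± 0.37) and nvy (2.07 ± 0.28) on the log2 scale. Of these, vg, dac and nvy lost their calls without barcodes rich in non-neuronal markers (edgeR adjusted p of 0.12, 0.15 and 0.11). They also lost them without the deepest barcodes (0.051, 0.058 and 0.061), although each kept its direction. For vg the libraries were unlike, with 29.2 and 269 CPM in GABA neurons, against 27.0 and 25.1 in cholinergic neurons, and log2 differences of vg of 0.22 in replicate 1 alone and 3.47 in replicate 2 alone. Lim1, a LIM-homeodomain gene, was held by 66.7% and 62.0% of members and was called against neither class, at 425 and 377 CPM, against 462 and 229 in glutamatergic and 291 and 243 in cholinergic neurons.

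Genes of motor neuron identity were lower in GABA than in glutamatergic neurons. Of 6 tested in that list, 4 were lower and none higher (background 0.387% and 0.332%), with a median log2 difference of -2.08. eve had 0 and 6 UMIs in GABA neurons, all 6 in 1 barcode, and stood at 0 and 4.10 CPM, against 82.0 and 41.9. exex stood at 12.5 and 10.9, against 68.4 and 91.1, tup at 20.8 and 45.1, against 82.0 and 155, and twit at 12.5 and 29.4, against 68.4 and 153. Each was lower in both libraries. Lim3, another factor of ventral motor neurons, stood at 0 and 16.4, against 148 and 135 in glutamatergic and 86.7 and 106 in cholinergic neurons. ap, a LIM-homeodomain gene of interneurons, had 0 and 1 UMI in the members, against 8.20 and 27.1 CPM in glutamatergic neurons. Orcokinin, a neuropeptide gene, stood at 0 and 2.73, against 156 and 122. None of the calls given so far in this paragraph passed without the non-neuronal-rich barcodes, although each kept its direction. In the other comparisons the motor list was mixed. Against other elav-positive barcodes zfh1 (log2 1.59 ± 0.13) and twit (1.69 ± 0.59) were higher and tup (-1.01 ± 0.28) lower. DESeq2 did not call twit or tup there (adjusted p of 0.073 each). Against cholinergic neurons zfh1 (1.33 ± 0.20) was higher and tup (-1.76 ± 0.32) lower.

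Sensory and ciliary genes were lower in GABA than in cholinergic neurons. All 4 tested members of the sensory list were lower (background 2.82%), with a median log2 difference of -3.14. peb, a zinc finger gene of sensory neurons, stood at 142 and 70.4 CPM, against 522 and 567, and ss at 12.5 and 6.83, against 95.6 and 133. nompA, made by support cells of sense organs, had 0 and 7 UMIs in GABA neurons, against 73.9 and 224 CPM in cholinergic neurons. The dynein assembly gene Dnaaf6 and the ciliary gene Cluap1 had no UMI in the members, and were at least 30.6-fold and 16.5-fold lower in replicate 2, taking 3 counts in that library as the floor. In replicate 1 the cholinergic levels of 12.5 and 10.3 CPM lay at or under that floor of 12.5 CPM and give no bound. Dnaaf6 was not called by DESeq2 (adjusted p = 0.69). acj6, a POU factor of olfactory and other cholinergic neurons, stood at 4.17 and 3.42, against 132 and 86.1. Without barcodes rich in non-neuronal markers, acj6, Cluap1 and Dnaaf6 were not called (edgeR adjusted p of 0.057, 0.057 and 0.052). The same held for cato of the sensory list (0.085), and each of these genes kept its direction. Fly sensory neurons are cholinergic, and the cholinergic gate does not separate them from interneurons.

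Genes of the synapse were higher than in other elav-positive barcodes. Against glutamatergic neurons none was called, which is near the share of 0.719% called over all genes. Of 29 vesicle release genes tested against other elav-positive barcodes, 25 were higher and none lower (background 10.8% each), with a median log2 difference of 2.29 beside -0.21 over all genes. nSyb, the neuronal synaptobrevin, stood at 167 and 348 CPM, against 12.0 and 35.0. It stood at 295 and 226 in glutamatergic neurons, and 0 of 26 tested vesicle genes passed that comparison (median -0.063). Against cholinergic neurons 3 of 26 were higher (background 1.88%), Syt1, nSyb and cpx, and none of them passed without the deepest barcodes. Of 17 pan-neuronal genes tested against other elav-positive barcodes 13 were higher, and 0 of 16 were called against glutamatergic neurons. Of 40 ion channel genes 20 were higher and none lower than in other elav-positive barcodes, and none of 27 was called against glutamatergic neurons.

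All 5 GABA receptor genes that could be tested were higher than in other elav-positive barcodes (background 10.8%). The remaining pair of the list, Grd and CG8916, had no UMI in the members. GABA-B-R1, a metabotropic receptor subunit, stood at 91.7 and 81.3 CPM, against 5.13 and 8.70 (log2 3.58 ± 0.36). The ionotropic subunit Lcch3 stood at 12.5 and 23.9, against 0.651 and 2.00. Rdl had 0 and 58 UMIs and GABA-B-R3 had 0 and 16 UMIs in the members, so both calls rested on replicate 2. Rdl was not called by DESeq2 (adjusted p = 0.072), with no replicate block (0.071) or at 3 elav UMIs (log2 1.57, adjusted p = 0.16), and GABA-B-R2 was not called at 3000 to 10000 UMIs (log2 1.29, adjusted p = 0.93). Of 4 GABA receptor genes tested none passed against glutamatergic neurons, near the 0.719% of all genes called there. GABA-B-R1 and Lcch3 were higher than in cholinergic neurons (background 1.88%), and both calls were lost without the deepest barcodes. Among acetylcholine and glutamate receptors 14 of 20 were higher and 1 lower than in other elav-positive barcodes (background 10.8% each). nAChRbeta1 stood at 221 and 299, against 17.0 and 26.5, and the glutamate-gated chloride channel GluClalpha at 58.3 and 91.6, against 4.18 and 7.53.

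Of 50 Dpr, DIP, Beat and Side genes tested against other elav-positive barcodes 34 were higher and 3 lower (background 10.8% each). Of 61 other guidance genes 33 were higher and 4 lower. Against glutamatergic neurons 3 of 39 genes of the first list were lower (background 0.387%), beat-VI, beat-Ia and side. Of 57 guidance genes 0 were called, near the 0.719% of all genes called there. beat-Ia, which acts in the defasciculation of motor axons, stood at 183 and 232 CPM, against 831 and 584, and its partner side at 54.2 and 68.3, against 159 and 184. None of these 3 calls held with no replicate block, without barcodes rich in non-neuronal markers or without the deepest barcodes, although each kept its direction, and beat-VI was not called by DESeq2 (adjusted p = 0.17). Against cholinergic neurons beat-Ic was higher (log2 4.20 ± 0.62), with 6 and 90 UMIs in the members, as was robo3, a Slit receptor, at 283 and 128, against 62.5 and 67.3. beat-Ic and robo3 lost their calls without the deepest barcodes.

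**Figure D3:**
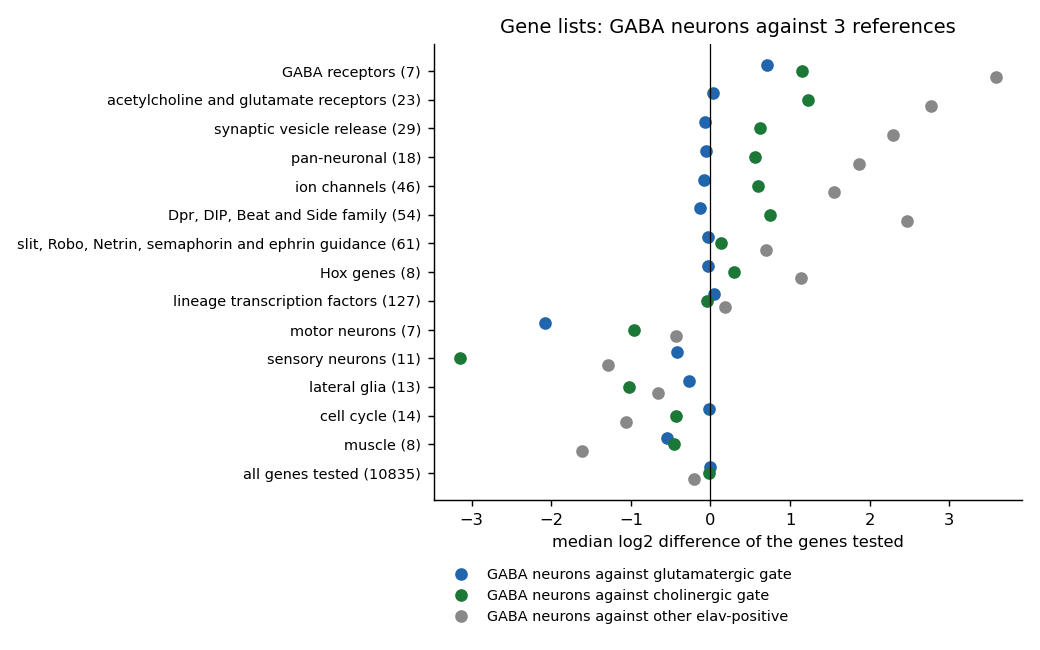
Median log2 difference of the tested genes of each list for GABA neurons against glutamatergic neurons (blue), cholinergic neurons (green) and other elav-positive barcodes (grey), with the number of genes measured in brackets. Motor neuron genes have a median of -2.08 against the glutamatergic gate, sensory genes -3.14 against the cholinergic gate, and vesicle release genes 2.29 against other elav-positive barcodes.

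Most cell cycle, muscle and blood cell genes tested were lower than in other elav-positive barcodes, and the glial and epidermal lists were mixed. The background for these lists was 10.8% each way. Of 14 cell cycle genes 10 were lower and none higher (median log2 -1.07). None was called against glutamatergic or cholinergic neurons, where 0.719% and 4.70% of all genes were. Of 8 muscle genes 7 were lower, and the summed muscle list stood at 567 and 1143 CPM, against 2068 and 2718. Of 7 blood cell genes 6 were lower, and their summed list stood at 91.7 and 280, against 887 and 809. Of 6 epidermal genes 2 were higher and 2 lower, and of 13 lateral glia genes 1 was higher and 4 lower. The summed lateral glia list stood at 1429 and 1834, against 1397 and 1823, and repo, its defining factor, had 0 and 35 UMIs in the members, 25 of them in 1 barcode. Over 1% of UMIs in non-neuronal markers were held by 0 of 15 and 8 of 71 members, and their part in the results was measured only by leaving them out.

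Some genes were high through 1 or 2 barcodes. The epidermal gene mey was called higher than in glutamatergic neurons (log2 3.15 ± 0.37), yet 436 of its 474 UMIs in replicate 2 came from a member with 140354 UMIs, which also held 1546 of the 1856 UMIs of Osi7. Without the deepest barcodes mey stood at -0.35 on the log2 scale. Vmat, the vesicular monoamine transporter, had 1 and 314 UMIs, of which 233 came from a member with 95098 UMIs. That member held 12 UMIs of Tdc2 and 7 of Tbh, enzymes of tyramine and octopamine synthesis, beside 20 of Gad1, 6 of VGAT and 480 of CG14989. Another member, with 54589 UMIs, held 72 UMIs of Vmat, 16 of Tdc2 and 7 of Tbh, beside 13 of Gad1, 7 of VGAT and 469 of CG14989. CG12239, which had log2 differences of 5.51 ± 0.70 against glutamatergic, 5.20 ± 0.49 against cholinergic and 6.24 ± 0.32 against other elav-positive barcodes, was held by 2 of 15 and 3 of 71 members.

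The members were not alike in their transcription factors. Of Fer3, Dbx, toy, mid and vg, 3 of 15 and 10 of 71 members held none, 3 and 13 held 1, 8 and 22 held 2, 1 and 19 held 3, and in replicate 2 another 5 held 4 and 2 held 5. In replicate 2, Fer3 was found with Dbx in 19 members, where the separate shares give 10.99, and with mid in 21, where they give 12.7. Fer3 was found with vg in 7 members, where they give 12.3. vg was found with toy in 17, where they give 11.8, and Lmx1a with CG4328 in 18, where they give 10.7. The neighbouring pair en and inv was found together in 21, where they give 10.2. All of these joint counts are from replicate 2. In replicate 1, 4 of 15 members held Fer3, with 2, 5, 41 and 47 UMIs. Of these, the barcode with 47 alone held Dbx, and all but the barcode with 41 held mid. Joint counts are not free of depth, since deep barcodes hold more genes, and no test was made.

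**Figure D4:**
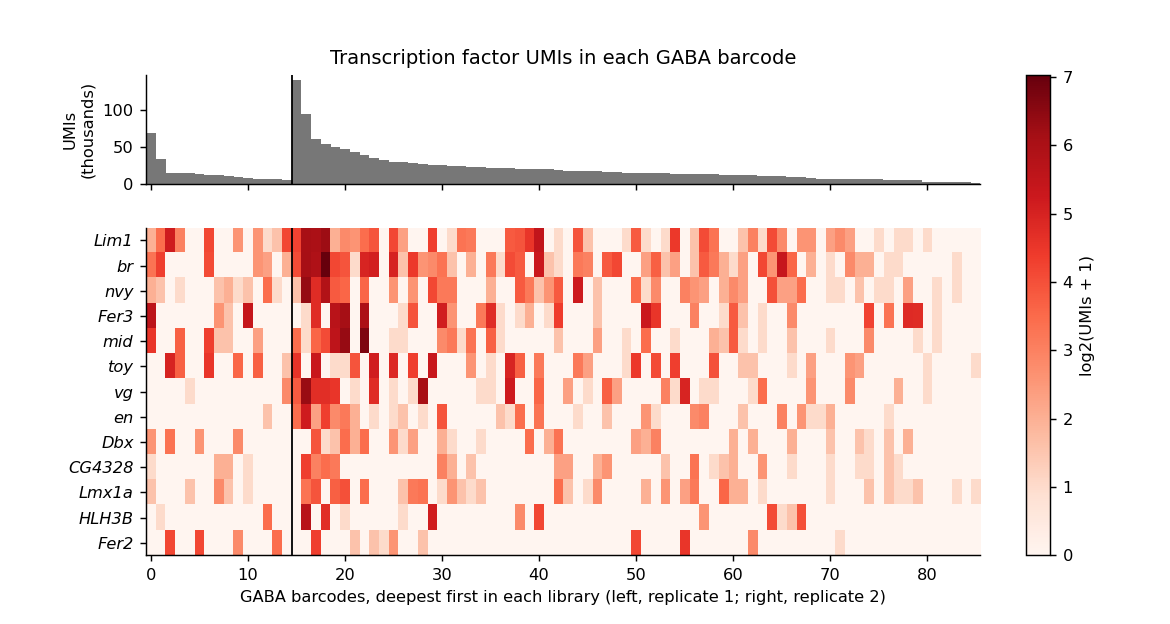
UMIs of 13 transcription factors in each of the 86 GABA barcodes, coloured by log2(UMIs + 1), with the total UMIs of each barcode as bars above. Barcodes run from deepest to shallowest within replicate 1 (left of the line, 15) and replicate 2 (right, 71), and Lim1 marks 10 and 44 of them.

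With barcodes thinned to 1500 UMIs the shares were lower. Fer3 was then held by 3 of 15 and 19 of 71 members, against 1 of 25 and 0 of 67 glutamatergic and 1.23% and 0.582% of cholinergic barcodes. Lim1 was held by 46.7% and 26.8% of members, toy by 33.3% and 18.3%, mid by 26.7% and 18.3% and Dbx by 6.67% and 4.23%. The widely expressed factors chinmo (93.3% and 85.9%) and lola (80.0% and 88.7%) remained in most.

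Hox genes, which mark position along the body axis, were each found in some members. Antp was held by 86.7% and 57.7% of members, Ubx by 66.7% and 69.0%, abd-A by 9 of 15 and 47 of 71 members and Abd-B by 46.7% and 59.2%. Scr was held by 20.0% and 25.4% and Dfd by 13.3% and 16.9%. Among muscle-marked barcodes 18.2% and 37.2% held Antp and 39.4% and 55.3% held Ubx. With members thinned to 1500 UMIs, Antp was held by 26.7% and 36.6%, Ubx by 46.7% and 42.3%, abd-A by 26.7% and 33.8% and Abd-B by 3 of 15 and 12 of 71. Of 8 Hox genes 7 were higher than in other elav-positive barcodes (background 10.8%), abd-A by 1.48 ± 0.16 on the log2 scale. None passed against glutamatergic or cholinergic neurons, where 0.719% and 4.70% of all genes were called.

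The paper places replicate 1 later in development than replicate 2, so library and embryo age cannot be told apart. No test was made between the libraries, which differed in some genes. Those with at least 50 UMIs that stood furthest above replicate 2 in replicate 1 were snRNA:7SKa, CG13427, Fer2, CG7296 and Hsp83, by 3.64-fold to 12.6-fold. In replicate 1, 212 of the 232 CG7296 UMIs and 70 of the 89 CG13427 UMIs came from 1 barcode each. snRNA:7SKa also stood higher in replicate 1 in other elav-positive barcodes, at 391 and 38.6 CPM, and Fer2 differed little there, at 208 and 52.6 in members, against 7.71 and 6.91. Those furthest above replicate 1 in replicate 2 were Osi6, Osi7, CG13631, CG15239 and Vmat, by 17.2-fold to 44.0-fold, and 3327 of the 3755 Osi6 UMIs came from 1 barcode. Other elav-positive barcodes also held more Osi6 (109 and 1343 CPM), Osi7 (62.9 and 666), CG13631 (69.2 and 361) and CG15239 (17.9 and 136) in replicate 2. Vmat differed less there (4.12 and 8.58), and Hsp83 stood higher in replicate 1 (989 and 427).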

How the data were processed

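Single-cell libraries of whole embryos were made and counted by the authors with Cell Ranger 6.1.2. The deposited matrices hold raw UMI counts for 17875 genes. Per library, stage 10-12 held 20529 and 13758 barcodes and 160693359 and 71622535 UMIs, and stage 13-16 held 39078 and 36217 barcodes and 186017099 and 394684653 UMIs.

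Members, references and gene lists were chosen with earlier results of these data known. Counts were summed per library and class, and GABA sums held 240025 and 1463264 UMIs. Sums were tested with the quasi-likelihood test of edgeR 4.0.16 (TMM, filterByExpr, Benjamini-Hochberg adjustment, threshold 0.05). The library was a block, since all classes of a replicate come from 1 library. Glutamatergic, cholinergic and GABA sums shared a fit. The 5 genes of the rule and mitochondrial genes were not tested. With 2 sums a class, p-values lean on a spread estimated across genes. The code was tested on simulated data. DESeq2 1.42.0 was an alternative. Levels are UMIs per 1000000 UMIs of a sum (CPM). Named genes were list members with at least 20 UMIs over both GABA sums or a call, transcription factors in at least 10% of members, per comparison the 10 largest rises and 5 largest falls among called genes with at least 50 UMIs in the higher group that moved alike in both libraries, and the 5 largest ratios each way between libraries. Gat, Grd, CG8916 and nompA were named after their values were seen. No doublet caller was run. Chromosome positions are from the Ensembl annotation of BDGP6.54. The deposited clustering was not used here. The stages were not tested against each other, because stage 10-12 held 11 and 1 such barcodes.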

Additional observations from a re-analysis of the deposited data

Results flagged for a closer look

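Barcodes that meet the same rule were also found in the stage 10-12 libraries, which no comparison of the report uses. Replicate 1 of stages 10-12 held 11 of them among 10586 elav-positive barcodes, and replicate 2 held 1 among 3799. The 11 barcodes had 829 UMIs of CG14989 (6825 CPM, against 23.8 in other elav-positive barcodes of that library), 7 of VGAT (57.6, against 0.280) and 186 of Fer3 (1531, against 10.7). Fer3 was held by 5 of them, en by 6 and Dbx by 4. The single barcode of replicate 2 held 27 UMIs of CG14989, 40 of Fer3 and none of VGAT.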

How the results depend on the processing

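Against other elav-positive barcodes 2339 genes were called. DESeq2 called 1093, the fit with no replicate block 797, an elav threshold of 3 UMIs 1433, barcodes of 3000 to 10000 UMIs 297 and the set without the deepest barcodes 1440. Against glutamatergic neurons 52 genes became 148 with no filter, 0 with no replicate block, 29 at 3 elav UMIs, 4 at 3000 to 10000 UMIs, 3 without barcodes rich in non-neuronal markers, 15 without the deepest barcodes and 85 in a fit of the pair alone. Against cholinergic neurons 340 became 208 with DESeq2, 782 with no filter, 4 with no replicate block, 226 at 3 elav UMIs, 3 at 3000 to 10000 UMIs, 44 without barcodes rich in non-neuronal markers, 56 without the deepest barcodes and 576 in a fit of the pair alone. Settings limited by depth or markers hold fewer barcodes (6 and 16 members at 3000 to 10000 UMIs). The other causes were not tested. edgeR with RLE factors and a transmitter threshold of 3 UMIs stayed within 1.5 times of each count.

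The share of members moved to 0 in replicate 1 and 0.0577% in replicate 2 after thinning, to 0.698% and 1.34% with 1 Gad1 UMI, to 0.0747% and 0.184% with 3 Gad1 UMIs and to 0.149% and 0.568% without the zero-UMI condition. Some genes changed direction. Against other elav-positive barcodes, GABA-B-R3 (-6.92), Rdl (-8.05) and Vmat (-0.073) did so without replicate 2, where GABA-B-R3 and Rdl have no UMI and the fitted value is no bound. Without replicate 1 they stood at 4.87, 3.19 and 4.68. H15 (-1.08), Vmat (-0.89) and mey (-12.47) did so at 3000 to 10000 UMIs, where the members hold no mey UMI and 1 Vmat UMI, so that mey value is no bound either, and mey without barcodes rich in non-neuronal markers (-1.32) and without the deepest (-0.47). Against glutamatergic neurons CG14395 (-0.080), Vmat (-4.93) and mey (-0.35) did so without the deepest barcodes, and mey without those rich in non-neuronal markers (-0.11). Against cholinergic neurons robo3 (-0.39) did so at 3000 to 10000 UMIs. Calls could not be recomputed without a replicate, since 1 sum a class is left. The fits with all 4 libraries were not run, because stage 10-12 held too few members.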
